A study of Mus musculus with 12 samples.

Results

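The ErbB receptors and their ligands were examined in RNA sequencing of mouse thyroids. The 10 genes are the 4 receptors *Egfr*, *Erbb2*, *Erbb3* and *Erbb4* and 6 ligands, *Nrg1*, *Nrg4*, *Egf*, *Areg*, *Hbegf* and *Tgfa*, out of 55536 genes in the count table. They were chosen by name, with the differences between affected and unaffected mice in these same libraries already known. Differences of these 10 genes between the groups are therefore given as descriptions, without p-values. How many of them the fit over all genes called is counted once, and nothing is read from it.

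Thyroids of 12 mice were sequenced, with 1 library from each mouse, after ribosomal RNA had been removed. The 5 affected mice (replicates 1, 3, 4, 5 and 6) had thyroid dysplasia and belonged to B6NTac, a C57BL/6N colony in which some but not all mice carry a LINE-1 element in an intron of the thyroglobulin gene *Tg*. Of the 7 unaffected mice, 6 were wild-type B6NCrl (replicates 21 to 26) while replicate 14, a knockout animal whose target the labels do not name, was from a mutant strain on B6NTac. The labels give no LINE-1 genotype, sex, age or batch for single mice, and colony and phenotype split the mice in the same way except for replicate 14, so they cannot be told apart. Total estimated counts lay between 20170500 and 23319948 in affected mice (median 20811033). In unaffected mice they lay between 11434901, in replicate 14, and 22401136 (median 19402629). Levels are given as CPM (counts scaled to a common library size, with edgeR's TMM factors), or as FPKM where genes are compared with each other, since FPKM is per transcript length. Errors are SD between mice unless named as a standard error.

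ErbB receptors are cell surface tyrosine kinases that act in pairs. *Egfr* binds *Egf*, *Tgfa*, *Areg* and *Hbegf*, while neuregulins bind *Erbb3* and *Erbb4*, and *Erbb2* acts mainly as the partner of the others. Most ligands are made as membrane-bound precursors that proteases release, and the receptors signal through the ERK and PI3-kinase pathways. In cultured thyroid follicular cells, epidermal growth factor is known as a stimulus of growth that lowers differentiated functions.

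The libraries carried the markers of thyroid. Of 10 follicular cell markers, all were detected, and their summed level was between 14008 and 32544 FPKM in affected mice and between 26524 and 35829 FPKM in unaffected mice, with *Tg* as the most abundant. Affected mice 1 and 6 had the lowest sums, at 14512 and 14008 FPKM. Of the 10 markers, edgeR called *Pax8* lower (adjusted p = 0.0158), while DESeq2 and limma on log2(FPKM + 1) called 2 each, with a median log2 fold change of -0.32. Over all genes tested, edgeR called 13.7%, 6.1% lower. *Pax8*, and *Calca* below, were named after their values were seen. Parathyroid markers, led by *Pth*, were near absent in affected mouse 4 (summed level 7.77 FPKM) and lay between 2496 and 5067 FPKM in the other libraries. The C cell list, led by *Chga*, summed to between 1324 and 3470 FPKM over the 12 mice, but *Chga* was at 8.62 FPKM in affected mouse 4 and between 1034 and 2576 FPKM in the others. *Calca*, of the same list, was at 1168 FPKM in affected mouse 4 and between 477 and 1193 FPKM in the others.

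All 10 ErbB genes had enough counts to enter the edgeR fit. *Areg* entered it through the affected mice, with 17 to 436 counts there and 0 to 21 in unaffected mice. At an adjusted p under 0.05 (edgeR's quasi-likelihood test over the 19661 genes tested), 3 of the 10 were called higher in affected mice (*Nrg1*, *Areg* and *Hbegf*) and 1 lower (*Erbb4*). Over all genes tested, 13.7% were called, 7.63% higher and 6.1% lower. The groups did not overlap for 1 gene of the 10 that was higher (*Nrg1*) and 1 that was lower (*Erbb4*). Over all genes tested, 7.14% did not overlap between the groups, 3.78% higher and 3.36% lower. The 10 genes were proposed with this contrast known, so these counts are not a test of them.

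**Figure D1:**
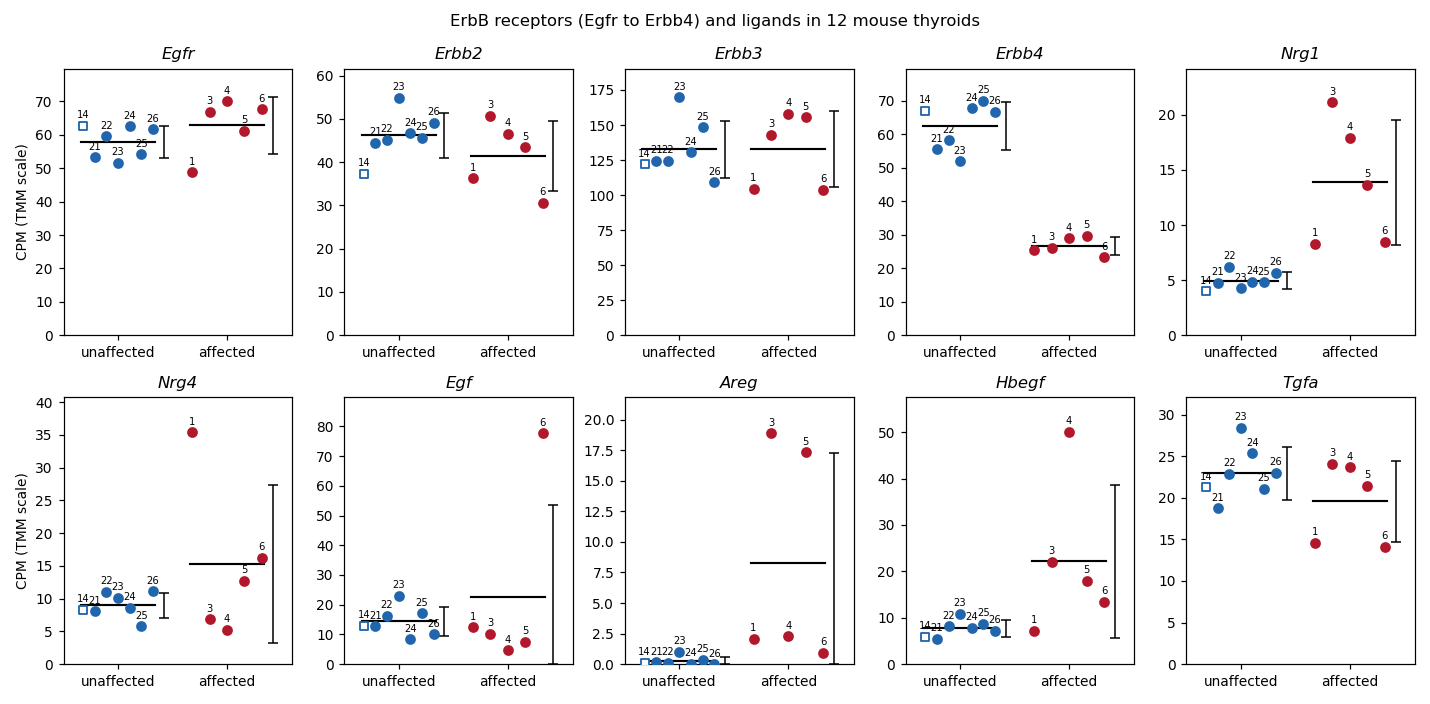
CPM on the TMM scale (vertical axes, each from 0) of the 10 ErbB genes in 7 unaffected (blue) and 5 affected (red) mice. Numbers are replicates, the open square is unaffected mouse 14, lines are group means, and bars are SD with lower ends stopped at 0. *Erbb4* lies between 23.2 and 29.7 in affected mice and between 51.9 and 70 in unaffected mice, and *Nrg1* is the other gene without overlap.

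Among the receptors, *Erbb4*, which binds neuregulins, was lower in the affected thyroids, while the levels of the other receptors overlapped between the groups. *Erbb4* (ENSMUSG00000062209, minus strand of chromosome 1, GRCm38, from 68032186 to 69108059) had 25.3, 26.1, 28.9, 29.7 and 23.2 CPM in affected mice 1, 3, 4, 5 and 6. Unaffected mice ranged from 51.9 to 70 CPM with a median of 66.7 CPM. Every affected mouse lay below every unaffected mouse, and unaffected mouse 14, the one from a B6NTac strain, stood with the B6NCrl mice at 67.0 CPM. Means were 26.6 ± 2.67 CPM (SD, n = 5) in affected and 62.4 ± 7.08 CPM (SD, n = 7) in unaffected mice. This gave -1.23 (standard error 0.09) as the log2 fold change. In these whole thyroids, fewer cells that express a gene and less RNA per cell cannot be told apart. Relative to the mean log2 level of the 10 follicular markers, *Erbb4* was at -2.80 ± 0.42 (SD, n = 5) in affected and -1.82 ± 0.28 (SD, n = 7) in unaffected mice, a difference of -0.98, and on that scale the groups overlapped. Affected mouse 4, which nearly lacked parathyroid markers, had an *Erbb4* level within the range of the other affected mice. This is 1 library, and the part of parathyroid tissue in the *Erbb4* level was not tested.

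*Egfr* (ENSMUSG00000020122, plus strand of chromosome 11, from 16752203 to 16918158), the receptor of epidermal growth factor, had 48.8, 66.9, 70, 61.2 and 67.7 CPM in affected mice 1, 3, 4, 5 and 6. Unaffected mice ranged from 51.6 to 62.7 CPM (median 59.6 CPM). Affected mice 3, 4 and 6 lay above all unaffected mice and affected mouse 1 below them, so the groups overlapped (log2 fold change 0.12, standard error 0.09). *Erbb2* (ENSMUSG00000062312, plus strand of chromosome 11, from 98412470 to 98437716), which has no known ligand of its own, ranged from 30.6 to 50.8 CPM in affected and from 37.3 to 54.8 CPM in unaffected mice (log2 fold change -0.15, standard error 0.12). *Erbb3* (ENSMUSG00000018166, minus strand of chromosome 10, from 128567523 to 128589652), a neuregulin receptor with little kinase activity, ranged from 104 to 158 CPM in affected and from 109 to 170 CPM in unaffected mice (log2 fold change 0.00, standard error 0.14). For *Erbb2* and *Erbb3*, affected mice 1 and 6 were the lowest of the affected mice, the same mice that had the lowest follicular marker sums, and the part of tissue makeup in their levels was not tested. Schwann cells also express *Erbb3*. Their markers, led by *Pmp22*, were highest in affected mouse 1 (summed level 258 FPKM, against 87.7 to 94.4 FPKM in the other affected mice), where *Erbb3* was at 105 CPM.

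Per transcript length, *Erbb3* was the most abundant receptor in both groups. In unaffected mice it had 22.1 ± 3.04 FPKM (SD, n = 7), followed by *Erbb2* with 9.99 ± 1.03, *Egfr* with 8.07 ± 0.432 and *Erbb4* with 7.51 ± 0.818 FPKM. *Erbb3* exceeded *Erbb2* without overlap, while *Erbb2*, *Egfr* and *Erbb4* overlapped with their neighbours in this order. In affected mice the order was *Erbb3* with 22.0 ± 4.49 FPKM (SD, n = 5), *Egfr* with 9 ± 0.873, *Erbb2* with 8.84 ± 1.95 and *Erbb4* with 3.19 ± 0.324 FPKM. *Erbb4* thus went from a level overlapping that of *Egfr* to the lowest mean FPKM of all 10 genes. This place holds for means only. By median in affected mice, *Areg* (1.86 FPKM) and *Egf* (2.46 FPKM) were lower than *Erbb4* (3.29 FPKM), and the other genes were higher. Its share of the summed FPKM of the 4 receptors was 7.49% ± 0.584 (SD, n = 5) in affected and 15.8% ± 2.11 (SD, n = 7) in unaffected mice. Their sum was 43.1 ± 7.22 FPKM (SD, n = 5) and 47.7 ± 3.25 FPKM (SD, n = 7).

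The genes whose log2 CPM was most like that of each receptor over the 12 mice were picked from 15521 genes as a measure of likeness only. For *Erbb4* these were *Frem2*, a basement membrane protein gene (Pearson r = 0.99), *Usp11*, a deubiquitinase gene (r = 0.98), and *6720489N17Rik* (r = 0.98). The log2 fold changes of these genes were -1.64, -1.01 and -1.07, so the split between the groups is part of the likeness, and over the 7 unaffected mice alone r was 0.66, 0.91 and 0.86. For *Erbb3* the closest were *Fzd5*, a Wnt receptor gene (r = 0.95, and 0.97 over unaffected mice), *Chmp4c* (r = 0.91) and *Arhgef28* (r = 0.90). *Erbb2* was closest to *Ssh3* (r = 0.95), *Mpzl1* (r = 0.94) and *Lrrc8e* (r = 0.94). *Egfr* was closest to *Sipa1l3* (r = 0.91), *Eef1akmt1* (r = 0.90) and *Unc13b* (r = 0.89). The mice share group, colony and tissue makeup, so the points are not independent of these.

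Of the ligands, *Nrg1*, *Areg* and *Hbegf* were higher in most affected mice, *Nrg4* and *Egf* were very high in 1 affected mouse each, and *Tgfa* overlapped between the groups. *Nrg1*, which encodes neuregulin 1, a ligand of *Erbb3* and *Erbb4* (ENSMUSG00000062991, minus strand of chromosome 8, from 31814551 to 32884029), had 8.30, 21.1, 17.9, 13.6 and 8.48 CPM in affected mice 1, 3, 4, 5 and 6. Unaffected mice ranged from 4.00 to 6.23 CPM (median 4.81 CPM). The groups were apart, with affected mice 1 and 6 nearest to the unaffected mice, and the lowest value of all was that of unaffected mouse 14. Its fold change was 1.49 in log2 (standard error 0.23). On log2(FPKM + 1), a scale that shrinks changes of low genes, the difference was 0.99. Relative to the follicular markers, which had a median log2 fold change of -0.32 themselves, the difference was 1.65 log2 units, again without overlap.

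*Areg*, the gene of amphiregulin, an *Egfr* ligand (ENSMUSG00000029378, plus strand of chromosome 5, from 91139599 to 91148432), was near the detection limit in the unaffected thyroids. Its counts were 47, 436, 44, 402 and 17 in affected mice 1, 3, 4, 5 and 6, and 1, 3, 2, 21, 1, 6 and 0 in unaffected mice 14 and 21 to 26. The 0 counts of mouse 26 allow up to 0.157 CPM before the TMM factor (a limit of 3 counts, which covers counting error only). Mice 3 and 5 stood far above the other affected mice, and affected mouse 6 lay below unaffected mouse 23. In CPM the means were 8.30 ± 8.99 (SD, n = 5) and 0.249 ± 0.361 (SD, n = 7), or 4.98 as a log2 fold change (standard error 0.98), which rests on few counts in the unaffected group. It was 2.12 on log2(FPKM + 1) and 4.00 on log2(FPKM + 0.1). Without unaffected mouse 23 it was 6.07, without affected mouse 3 it was 4.43 and without affected mouse 5 it was 4.53. Airway and squamous markers, led by *Scgb1a1*, were highest in affected mouse 3 (summed level 164 FPKM) and were at 8.93 FPKM in affected mouse 5. The part of such tissue in the *Areg* level was not tested.

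*Hbegf*, the gene of heparin-binding EGF-like growth factor, a ligand of *Egfr* and *Erbb4* (ENSMUSG00000024486, minus strand of chromosome 18, from 36504927 to 36515805), had 7.16, 22.1, 50, 18.0 and 13.5 CPM in affected mice 1, 3, 4, 5 and 6. Unaffected mice ranged from 5.47 to 10.9 CPM (median 7.77 CPM). Affected mice 3, 4, 5 and 6 lay above all unaffected mice, with mouse 4 highest, and mouse 1 lay within the unaffected range. This was 1.52 as a log2 fold change (standard error 0.38), and 0.99 without affected mouse 4. Relative to the follicular markers the difference was 1.51 log2 units, without overlap, whereas in CPM the groups overlapped. Those markers had a median log2 fold change of -0.32 themselves, with a low sum in affected mouse 1 (14512 FPKM). The ratio therefore also carries their difference between the groups.

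*Nrg4*, the gene of neuregulin 4, an *Erbb4* ligand known as a product of brown fat (ENSMUSG00000032311, minus strand of chromosome 9, from 55220222 to 55326844), had 35.4, 6.84, 5.21, 12.7 and 16.2 CPM in affected mice 1, 3, 4, 5 and 6, and from 5.77 to 11.1 CPM (median 8.56 CPM) in unaffected mice. Affected mice 1, 5 and 6 lay above all unaffected mice and mouse 4 below them. The summed level of 5 brown adipose markers, led by *Ucp1*, was 793, 69.8, 22.5, 277 and 270 FPKM in affected mice 1, 3, 4, 5 and 6, and from 42.6 to 171 FPKM in unaffected mice. The affected mice with the most of these markers were thus those with the most *Nrg4*. White adipose markers, led by *Fabp4*, were also highest in affected mice 1, 5 and 6. They summed to 2262, 525, 353, 809 and 894 FPKM in affected mice 1, 3, 4, 5 and 6, and from 410 to 776 FPKM in unaffected mice. The part of brown or white fat in the *Nrg4* level was not tested. Of the brown adipose markers, 2 of 5 were called higher by edgeR, 3 were called by DESeq2 and 0 by limma on log2(FPKM + 1), where edgeR called 13.7% of all genes tested, 7.63% higher. The log2 fold change of *Nrg4* was 0.76 (standard error 0.40). Without affected mouse 1 it was 0.18, and without mice 1 and 6 together, an alternative chosen after seeing the data, it was -0.13.

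*Egf*, the gene of epidermal growth factor (ENSMUSG00000028017, minus strand of chromosome 3, from 129677565 to 129755316), had 12.4, 10.2, 4.69, 7.55 and 77.7 CPM in affected mice 1, 3, 4, 5 and 6, and from 8.40 to 23.0 CPM (median 13 CPM) in unaffected mice. Mouse 6 stood alone above all other mice, while mice 4 and 5 lay below all unaffected mice. The fold change was 0.64 in log2 (standard error 0.62) with all mice and -0.71 without affected mouse 6, and it was -0.05 on log2(FPKM + 1) and -0.16 on log2(FPKM + 0.1). Skeletal muscle markers, led by *Acta1*, summed to 10695 FPKM in affected mouse 6, 6.08 to 473 FPKM in the other affected mice and 1.27 to 4792 FPKM in unaffected mice. The part of muscle in the *Egf* level was not tested. The submandibular salivary gland is the main known source of *Egf* in mice. Its 10 markers, led by *Amy1*, summed to between 7.26 and 23.7 FPKM over the 12 mice, and to 21.5 FPKM in affected mouse 6. Of these markers, *Smr2* and *Klk1b26* were named after their values were seen. Only *Smr2* was at 0 in all 12 mice, while *Klk1b26* lay between 0.0355 and 2.61 FPKM and was highest in affected mouse 6. The part of salivary gland in the *Egf* level was not tested.

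**Figure D2:**
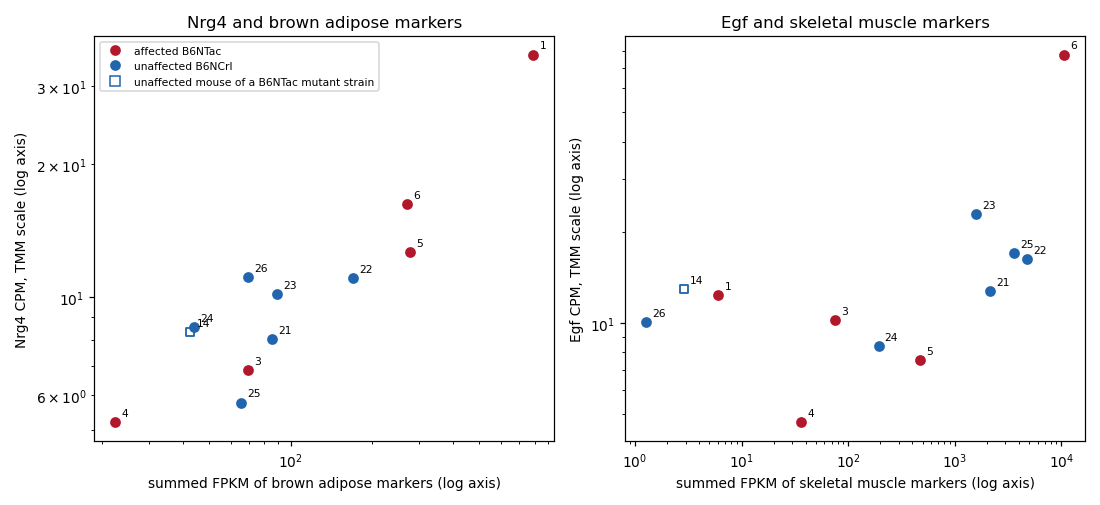
Left, *Nrg4* (CPM, TMM scale) against the summed FPKM of 5 brown adipose markers. Right, *Egf* against the summed FPKM of 7 skeletal muscle markers, with log axes throughout and 1 point for each of 12 mice, numbered by replicate. Affected mouse 1 has the highest *Nrg4* and brown adipose values, and affected mouse 6 the highest *Egf* and muscle values.

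*Tgfa*, the gene of transforming growth factor alpha, an *Egfr* ligand (ENSMUSG00000029999, plus strand of chromosome 6, from 86195223 to 86275719), ranged from 14.1 to 24.1 CPM in affected and from 18.8 to 28.4 CPM in unaffected mice. Affected mice 1 and 6 lay below all unaffected mice and the other affected mice within their range. The log2 ratio was -0.23 (standard error 0.15), and relative to the follicular markers the difference was -0.01. In unaffected mice *Tgfa* had the highest mean FPKM of the 6 ligands (5.44 ± 0.657, SD, n = 7), followed by *Nrg4* (5.03 ± 1.06), *Egf* (3.79 ± 1.14), *Hbegf* (3.15 ± 0.667), *Nrg1* (1.79 ± 0.310) and *Areg* (0.203 ± 0.292). Of the neighbours in this order, *Hbegf* and *Nrg1* and then *Nrg1* and *Areg* did not overlap, and the others did. In affected mice the order was *Hbegf* (8.72 ± 5.89 FPKM, SD, n = 5), *Nrg4* (8.60 ± 7.37), *Areg* (6.94 ± 7.57), *Egf* (5.51 ± 7.42), *Nrg1* (4.82 ± 2.11) and *Tgfa* (4.70 ± 1.27), with overlap between all neighbours.

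The direction of some of the small differences followed the scaling. With library totals that leave out *Tg*, and without TMM factors, the median log2 fold change of all genes was -0.13, against 0.01 on the TMM scale. Under it, *Egfr* was at -0.02 and *Erbb3* at -0.11, which is 0.11 and 0.02 relative to that median. *Erbb4*, *Nrg1*, *Areg* and *Hbegf* kept their directions under each scaling tried, at -1.23, 1.51, 5.07 and 1.55 relative to the same median. Over all genes, the TMM fit gave 2699 calls, 1500 higher and 1199 lower (55.6% higher). Totals without *Tg* gave 2313 calls, 604 higher and 1709 lower (26.1% higher), and upper-quartile factors gave 2659 calls, 1149 higher and 1510 lower (43.2% higher). Without affected mouse 5, 1774 genes were called.

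Of the 5 other ErbB ligands, which were not among the 10 genes, *Btc* and *Nrg2* passed the filter. Of these 2, 0 were called by edgeR, with 0 at an unadjusted p under 0.05. Over all genes tested, edgeR called 13.7%. DESeq2 called 3603 of the 36502 genes for which it gave a fold change. Some of these, such as *Epgn* and *Nrg3*, had no adjusted p, so that share is not comparable with the one from edgeR. Nothing is read from the counts for this list. *Btc*, the gene of betacellulin, ranged from 5.98 to 7.48 CPM in affected and from 6.17 to 9 CPM in unaffected mice (log2 fold change -0.15, standard error 0.12, adjusted p = 0.469 from edgeR). *Nrg2* had 2 to 18 counts in a mouse (log2 fold change 0.23, adjusted p = 0.768), and its value was -0.02 without affected mouse 3 and 0.49 without affected mouse 4. *Epgn* and *Nrg3* had at most 1 and 2 counts in any mouse. *Ereg*, the gene of epiregulin, an *Egfr* and *Erbb4* ligand, did not pass the filter, with 12, 86, 27, 58.7 and 4 counts in affected mice 1, 3, 4, 5 and 6 and 0 to 3 counts in unaffected mice. These counts did not overlap between the groups, and mice 3 and 5 were the highest, as for *Areg*. When no filter was used, the log2 fold change of *Ereg* was 4.83 (edgeR adjusted p = 0.00296), and DESeq2 gave 4.99 (adjusted p = 1.21e-06), so DESeq2 called 1 of the list. On log2(FPKM + 1) without a filter, limma gave 0.44 (adjusted p = 0.0793). When affected mouse 6, the affected mouse with the fewest *Ereg* counts, was left out, *Ereg* passed the filter and the list had 1 call (log2 fold change 5.11, edgeR adjusted p = 0.000713). Under the default filter, passing depended on leaving out this mouse. It also came from the affected mice, where *Ereg* was high, so nothing is read from that call. The same fit called 2718 of 19998 genes.

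Some pairs of these genes were alike over the mice and others were not. Over the 12 mice, *Areg* and *Ereg* had a Pearson r of 0.93 in log2 CPM (Spearman rho 0.88), 0.78 after the group means were subtracted and 0.39 over the 7 unaffected mice. *Erbb2* and *Tgfa* had r = 0.89 (rho 0.89), 0.87 after the group means were subtracted, 0.67 over the 7 unaffected mice and 0.69 over the 10 mice other than affected 1 and 6. These pairs are the highest of 66 pairs of the 10 genes with *Btc* and *Ereg*, together with *Nrg1* and *Ereg* (r = 0.91, but -0.42 over the 7 unaffected mice). Among the ligands, *Nrg4* and *Tgfa* had r = -0.65, which was 0.11 without affected mice 1 and 6 and 0.46 over the 7 unaffected mice. *Nrg4* and *Hbegf* had r = -0.33, which was -0.81 after the group means were subtracted and 0.13 over the 7 unaffected mice. The mice share group and tissue makeup, and the values are descriptions.

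*Areg* and *Ereg* are neighbours. With *Epgn* and *Btc* they form a cluster on chromosome 5 from 91027464 to 91402994 (GRCm38), in which *Ereg* lies from 91074622 to 91093646 on the plus strand and *Btc* from 91357261 to 91402994 on the minus strand. The promoters of *Areg* and *Btc* are shown because the former gene differed widely between mice and the latter varied little, and that of *Erbb4* because it was the receptor that differed. They are the 250 bases before the RefSeq start (GRCm38.p6), written 5′ to 3′ on the strand of the gene. They lie at chr5:91139349-91139598 (*Areg*, plus strand), chr5:91402995-91403244 (*Btc*, minus strand) and chr1:69108060-69108309 (*Erbb4*, minus strand). Capitals mark matches on either strand to 5 motifs. These are TGACGTCA, known as the cAMP response element, and the AP-1 motif written as TGANTCA. The others are the TATA box, searched for with the letters TATAAA, the C/EBP-ATF response element, for which the letters were TGATGNAA, and the motif CCAAT.
Areg: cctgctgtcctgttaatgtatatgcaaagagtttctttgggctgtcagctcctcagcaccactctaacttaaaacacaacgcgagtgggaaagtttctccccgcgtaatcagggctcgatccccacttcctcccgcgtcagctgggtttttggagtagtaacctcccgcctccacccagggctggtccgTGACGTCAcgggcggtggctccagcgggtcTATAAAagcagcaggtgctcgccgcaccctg
Btc: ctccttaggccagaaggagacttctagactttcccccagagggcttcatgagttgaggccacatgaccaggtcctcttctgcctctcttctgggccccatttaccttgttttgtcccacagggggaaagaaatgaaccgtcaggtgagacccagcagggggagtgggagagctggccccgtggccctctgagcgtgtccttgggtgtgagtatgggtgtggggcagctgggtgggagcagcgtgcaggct
Erbb4: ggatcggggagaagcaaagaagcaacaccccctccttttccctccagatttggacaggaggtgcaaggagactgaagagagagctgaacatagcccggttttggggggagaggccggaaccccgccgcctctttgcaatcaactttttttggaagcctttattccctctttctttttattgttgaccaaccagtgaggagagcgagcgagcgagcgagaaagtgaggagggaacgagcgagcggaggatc
The *Areg* promoter held TGACGTCA starting at -61 and TATAAA at -31 from the start, and those of *Btc* and *Erbb4* held none of the 5 motifs. Of 32851 promoters of this length, 1.55% held TGACGTCA, 6.75% TGANTCA, 12.4% TATAAA, 3.45% TGATGNAA and 33.9% CCAAT. Promoters were matched for 7 of the 10 genes, among them *Erbb2*, which held CCAAT at -41. A match is a description of the letters and not a site.

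Transcript use was examined by the length implied by each count, FPKM and library total. This length was within 0.99993 to 1.00009 times the annotated length for those 1034 single-transcript genes whose count was 100 or more in each library. *Erbb3* and *Areg* have 1 annotated transcript each, so their implied length cannot differ. For the other 8 genes it overlapped between the groups. It was 8325 ± 579 bp (SD, n = 5) in affected and 8347 ± 492 bp (SD, n = 7) in unaffected mice for *Erbb4*, and 2910 ± 154 and 2793 ± 265 bp for *Nrg1*, which has 18 annotated transcripts. Exons of *Erbb2*, *Nrg1*, *Nrg4*, *Egf*, *Tgfa* and *Ereg* overlap genes on the other strand, by at most 6.06% of exon bases for any 1 overlapping gene (*Nrg4* with *Fbxo22*), and it is not known here if reads were counted by strand, so reads of such stretches cannot be told apart.

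Of 10 tested genes of ligand shedding and maturation, 4 were called higher and 1 lower by edgeR, with a median log2 fold change of 0.21. Over all genes tested the median was 0.01, 13.7% were called and 55.6% of the calls were higher. This list was chosen with earlier results of these data known, so nothing is read from its counts or median. *Adam9*, a membrane protease gene, had 66.5, 69.4, 68.0, 69.2 and 68.7 CPM in affected mice 1, 3, 4, 5 and 6 and from 41.0 to 51.4 CPM in unaffected mice. It was higher in every affected mouse (log2 fold change 0.57, standard error 0.06, adjusted p = 0.000157 from edgeR). *Cnih1*, a gene of the cornichon family whose fly relative exports an *Egfr* ligand from the endoplasmic reticulum, rose by 0.34 (adjusted p = 0.011, and 0.196 with totals without *Tg*). *Bace1*, a protease gene that cleaves *Nrg1*, fell by 0.36 (adjusted p = 0.00911), also without overlap. *Adam19* was 0.58 higher (adjusted p = 0.0401), but leaving out any 1 mouse other than affected 4 or unaffected 21 ended the call (adjusted p between 0.0542 and 0.0917), and over all 24 alternatives its adjusted p was between 0.00233 and 0.322. *Adam10* and *Adam17* were named after their values were seen. *Adam10* was the remaining gene called (0.27, adjusted p = 0.0167), and *Adam17*, the main known sheddase of *Egfr* ligands, was at 0.13 (adjusted p = 0.39). With totals without *Tg*, 1 gene of the list was called higher and 1 lower, and without TMM factors, with upper-quartile factors and in each limma fit 2 were called higher and 1 lower.

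**Figure D3:**
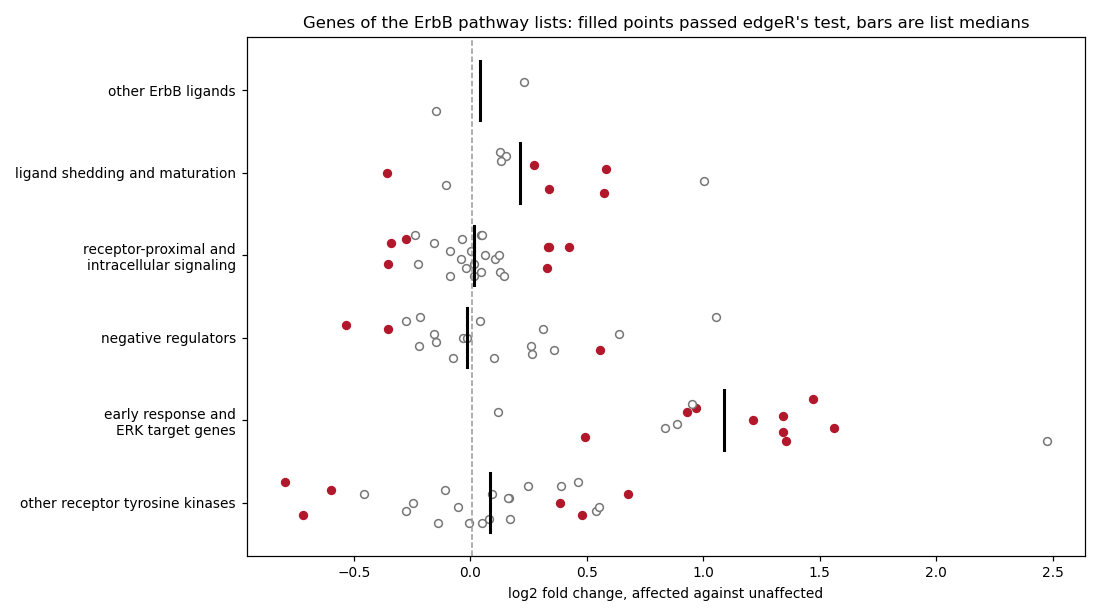
Log2 fold change, affected against unaffected (horizontal axis), of the tested genes of 5 ErbB pathway lists and of other receptor tyrosine kinases. Each point is a gene, filled points had an adjusted p under 0.05 from edgeR, black bars are list medians and the dashed line is the median of all genes tested (0.01). The early response list has a median of 1.09.

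Of 26 genes of receptor-proximal and intracellular signaling, 4 were called higher and 3 lower (13.7% of all genes tested were called), with a median log2 fold change of 0.02. As for the other lists, earlier results of these data were known when it was chosen, and nothing is read from these counts. *Pik3r1*, the gene of a regulatory subunit of PI3-kinase, fell in every affected mouse relative to every unaffected mouse (221 ± 17.9 CPM, SD, n = 5, against 280 ± 11.8 CPM, SD, n = 7, log2 fold change -0.34, adjusted p = 0.00403 from edgeR). *Hras*, a RAS GTPase gene, rose by 0.42 (adjusted p = 0.0281), a call lost without affected mouse 3 (0.0745), affected mouse 5 (0.0732) or unaffected mouse 21 (0.0514), with adjusted p between 0.00605 and 0.15 over the 24 alternatives. The transcription factor genes *Stat3* (0.34, adjusted p = 0.0285) and *Stat5a* (-0.35, adjusted p = 0.0433) differed in opposite directions. The call of *Stat3* was lost without affected mouse 3 (adjusted p = 0.0625), affected mouse 5 (0.0617), unaffected mouse 14 (0.0547) or unaffected mouse 26 (0.0579), and its range was 0.00402 to 0.351. That of *Stat5a* was lost without any 1 mouse other than affected mouse 1 (adjusted p between 0.0591 and 0.108), and its range was 0.00504 to 0.215. The remaining calls, named after their values were seen, were *Shc1* and *Ptpn11*, an adaptor and a phosphatase gene, both 0.33 higher, and *Plcg1* at -0.28. The number of calls was 2 without affected mouse 3 or 5, 4 without unaffected mouse 14, 24 or 25, and 3 without unaffected mouse 21 or 26. With totals without *Tg*, 0 were called higher and 4 lower.

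Of 19 negative regulators, 1 was called higher and 2 lower, with a median of -0.02, where 13.7% of all genes tested were called. Nothing is read from this count for the list. *Dusp6*, a phosphatase gene that acts on ERK and is itself an ERK target, had 38.0, 41.9, 48.7, 39.3 and 37.9 CPM in affected mice 1, 3, 4, 5 and 6 and from 23.9 to 32.4 CPM in unaffected mice. It was higher in every affected mouse (log2 fold change 0.55, standard error 0.09, adjusted p = 0.00149 from edgeR). *Spry1*, an inhibitor of RAS signaling, fell by 0.53 (adjusted p = 0.0164, and 0.0562 without affected mice 1 and 6 together). *Lrig1*, an inhibitor of ErbB receptors, fell by 0.35 (adjusted p = 0.0257), a call lost without affected mouse 1 (0.056), 3 (0.0657) or 5 (0.0614) or unaffected mouse 22 (0.0639), 24 (0.0714) or 25 (0.0674), with a range of 0.00411 to 0.0714. Without affected mouse 4 or affected mouse 6, 5 genes of the list were called.

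Of 14 early response and ERK target genes tested, 9 were called higher and 0 lower (13 at an unadjusted p under 0.05), with a median log2 fold change of 1.09, and 14 of 14 log2 fold changes were positive, against 9980 of 19661 over all genes tested, of which 13.7% were called. The list was chosen with earlier results of these data known, and nothing is read from these counts for it. *Etv5*, a transcription factor gene and ERK target, had 37.6, 55.6, 85.0, 65.7 and 57.6 CPM in affected mice 1, 3, 4, 5 and 6 and from 19.6 to 31.9 CPM in unaffected mice. The groups were apart (log2 fold change 1.36, standard error 0.17, adjusted p = 0.000487 from edgeR). *Plaur*, the gene of the urokinase receptor, rose by 1.56 (adjusted p = 0.0164, and 0.0967 on log2(FPKM + 1) without a filter). *Egr3*, an immediate early transcription factor gene, rose by 1.34 (adjusted p = 0.024, and 0.0512 without affected mouse 3), with a range of 0.00292 to 0.0843 over the alternatives. *Egr1*, of the same family, had 29.0, 64.6, 296, 61.5 and 106 CPM in affected mice 1, 3, 4, 5 and 6 and from 29.2 to 47.9 CPM in unaffected mice. It rose by 1.47 in log2 (edgeR adjusted p = 0.0498), and 0.73 without affected mouse 4 (adjusted p = 0.0828). Leaving out any 1 mouse other than affected mouse 1 ended the call of *Egr1* (adjusted p between 0.0561 and 0.0857), and its range was 0.00422 to 0.225. *Fos*, named after its values were seen, was at 251 CPM in affected mouse 4 and between 6.33 and 64.5 CPM in the other affected mice (log2 fold change 2.48, adjusted p = 0.0598). Affected mouse 4 was also the mouse with the most *Hbegf*, and without it 8 of 14 genes of the list were called. The remaining calls, named after their values were seen, were *Jun*, *Egr2*, *Ier3*, *Myc* and *Ccnd1*. Without affected mouse 3, 5 genes of the list were called, and DESeq2 called 14 of 15.

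For comparison, of 24 other receptor tyrosine kinases 3 were called higher and 3 lower (13.7% of all genes tested were called), with a median log2 fold change of 0.09. Earlier results of these data were also known when this list was chosen, and nothing is read from these counts. *Fgfr2*, a fibroblast growth factor receptor gene, fell in every affected mouse (122 ± 24.8 CPM, SD, n = 5, against 201 ± 23.1 CPM, SD, n = 7, log2 fold change -0.72, adjusted p = 0.00325 from edgeR). Its call held under all 24 alternatives, as far as an adjusted p of 0.00847. The other named calls were lost with most single mice. *Ret*, a neural and C cell receptor gene (-0.80, adjusted p = 0.0377), was lost without any 1 mouse other than affected 4 and unaffected 14 and 21 (adjusted p between 0.055 and 0.0786, with a range of 0.00678 to 0.0971). *Kdr*, an endothelial receptor gene (-0.60, adjusted p = 0.0413), was lost without any other than affected 4 and unaffected 21 and 25 (0.0578 to 0.0978, with a range of 0.0114 to 0.143). *Csf1r*, a macrophage receptor gene (0.68, adjusted p = 0.0481), was lost without any other than affected 4 and unaffected 21 (0.0505 to 0.111, with a range of 0.0122 to 0.164). *Ddr2* and *Pdgfra*, named after their values were seen, were the other calls and were higher. The number of calls was 3 without affected mouse 1, 3 or 6, 2 without affected mouse 5, 3 without unaffected mouse 14 or 23, and 2 without unaffected mouse 22, 24 or 26.

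Markers of other cells differed between libraries beside the ErbB genes. Macrophage markers, led by *C1qa*, were called higher for 3 of 5 genes, fibroblast markers, led by *Dcn*, for 2 of 5, and Schwann cell markers for 1 of 7. DESeq2 called 4, 2 and 3 of these, and limma on log2(FPKM + 1) called 2, 2 and 0. Over all genes tested, edgeR called 13.7%. For airway and squamous markers (4 tested) edgeR called 0, with 1 at an unadjusted p under 0.05, DESeq2 called 1 and limma 0. For endothelial markers (5, led by *Pecam1*) edgeR called 0, with 2 at an unadjusted p under 0.05, DESeq2 called 2 and limma 1. For mast cell markers (5, led by *Kit*) edgeR called 0, with 1 at an unadjusted p under 0.05, and DESeq2 and limma called 0. That 1 gene was *Kit* itself, at a log2 fold change of -0.46, while the other 4 had positive log2 fold changes. For C cell (4), parathyroid (3), salivary gland (5), muscle (7), white adipose (5, led by *Fabp4*) and T cell markers (5, led by *Cd8a*), edgeR called 0, with 0 at an unadjusted p under 0.05, and DESeq2 and limma called 0. T cell markers summed to 110 and 115 FPKM in unaffected mice 14 and 21, which stood apart from the other unaffected mice (1.08 to 1.63 FPKM), and to 20.9 and 19.7 FPKM in affected mice 1 and 3 (1.05 to 2.11 FPKM in the other affected mice). Fibroblast markers summed to between 254 and 420 FPKM in affected and between 157 and 233 FPKM in unaffected mice, and macrophage markers to between 39.1 and 73.1 and between 20.4 and 53.9 FPKM. Both sums were highest in affected mouse 1, where *Nrg1* and *Hbegf* were the lowest of the affected mice in CPM. In FPKM, *Nrg1* was lower in affected mouse 6 (2.59, against 2.91 in affected mouse 1). The part of fibroblasts and macrophages in the levels of the ErbB genes was not tested.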

How the data were processed

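The authors removed ribosomal RNA, sequenced on an Illumina NextSeq and used OmicSoft Array Studio with GRCm38 for alignment and quantification. The paper gives the genome reference under another name, with Ensembl release 96. The authors deposited estimated counts per gene. They also deposited FPKM values, made by the authors from the same quantification. All 55536 gene identifiers are in GENCODE release M21.

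Counts were rounded, filtered (filterByExpr, minimum count 10), scaled by TMM and tested with edgeR 4.0.16 (quasi-likelihood, robust, R 4.3.3), affected against unaffected, without covariates, with Benjamini-Hochberg adjustment over 19661 genes. The test was also tested on simulated data. P-values rest on the spread between mice. Standard errors are the fold change divided by the root of F, and log2 CPM has a prior count of 2.

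Alternatives were DESeq2 1.42.0, other scalings, other filters, B6NCrl controls alone (the same fit as without mouse 14), limma 3.58.1 on log2 FPKM, *Xist* as a covariate and each mouse left out. The 10 genes and the lists were chosen with earlier results of these data known. Named genes are the 10, the other ligands, the 4 called genes of each list with the largest change, 3 most like each receptor (average log2 CPM at least 1) and the most abundant marker of each list. Other genes whose values are given are marked in the text as named after their values were seen. Of the shedding list, 10 of 11 genes were matched by symbol.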

Additional observations from a re-analysis of the deposited data

Results flagged for a closer look

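Of 32 groups of values examined for a sample far from the others, in 4 a sample was. The rule is meant to flag about 1 in 20 groups by chance. That rate was not measured here and may not hold for genes with few counts. *Egf* in affected mouse 6 was at 77.7 CPM, far from the other affected mice, in the library with the highest sum of skeletal muscle markers. *Areg* in unaffected mouse 23 was at 1.03 CPM (21 counts), far above the other unaffected mice. *Epgn* in affected mouse 6 was at 0.055 CPM, which is 1 count against 0 in the other affected mice. The total count of unaffected mouse 14 was 11434901, far below the other unaffected mice, so its low counts, such as 48.3 for *Nrg1*, are the least precise.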

How the results depend on the processing

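The count of all genes called was 2699 and stayed within 1.5 times under the alternatives except limma on log2(FPKM + 1) without a filter (1339) and the fit without affected mouse 5 (1774), while single mice left out gave 1774 to 3390. For the other ErbB ligands, the call of 0 became 1 with DESeq2, without a filter and without affected mice 1 and 6 together (chosen after seeing the data), and was 0 to 1 with single mice left out, each time through *Ereg*. Shedding and maturation went from 5 calls to 3 without TMM factors, 2 with totals without *Tg*, 3 with upper-quartile factors and 3 in each limma fit. Signaling went from 7 to 4 without TMM factors, with totals without *Tg*, without a filter and with B6NCrl controls alone, to 3 in both limma fits with a filter and to 1 without one, with 2 to 7 over single mice left out. Negative regulators had 3 calls, and 2 to 5 with single mice left out. The early response list went from 9 to 14 with DESeq2 and to 5 in limma without a filter, with 5 to 11 over single mice left out. Other receptor tyrosine kinases went from 6 to 2 without a filter, 3 with B6NCrl controls alone, 1 in limma without a filter and 3 with *Xist* as a covariate, with 2 to 8 over single mice left out. *Nrg2* was 0.23, changed sign without affected mouse 3 (-0.0206) and reached 0.49 without affected mouse 4. The causes of these shifts were not tested. *Adam9*, *Bace1*, *Pik3r1*, *Dusp6*, *Etv5* and *Fgfr2* kept direction and call under all 24 alternatives (B6NCrl controls alone and mouse 14 left out are the same fit), with adjusted p up to 0.00528, 0.0481, 0.0157, 0.04, 0.00232 and 0.00847. *Erbb4* and *Nrg1* kept direction under them. Without affected mice 1 and 6, *Egf* was at -0.94, *Areg* at 5.61 and *Hbegf* at 1.96. In the same fit *Erbb2* and *Tgfa* changed sign, to 0.022 and 0.007, and *Erbb3* was at 0.20. No paired analysis was possible because the groups share no replicate numbers. Depth limits *Areg*, *Ereg*, *Epgn*, *Nrg2* and *Nrg3* most, since each had under 25 counts in every unaffected mouse.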
